A study of Mus musculus with 16 samples.

Results

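The genes described here encode collagens, laminins and integrins, with fibronectin (Fn1), the nidogens (Nid1 and Nid2), perlecan (Hspg2) and the collagen-binding glycoprotein Sparc. They were chosen by symbol and by count: a gene of these families was included where at least 2 of the 16 libraries held 10 or more counts. Of 86 rows of these families, 62 met that rule, out of 27179 genes in the count table, and 59 of the 62 passed the filter of the fit across all genes. The members were 29 collagens, 9 laminin chains, 14 integrin alpha subunits, 5 integrin beta subunits and the 5 further matrix proteins. RNA came from mouse embryonic stem (ES) cells, pluripotent cells derived from the early embryo, on gelatin-coated plates. One set was kept in 2i/LIF, a serum-free DMEM/F-12 and Neurobasal medium with N-2 and B-27 supplements. The other was kept in serum/LIF+2i, a knockout DMEM medium with 10% fetal bovine serum. Both media held 2-mercaptoethanol, leukaemia inhibitory factor (LIF), 2 mM glutamine and 2i, which is 3 uM CHIR99021, a GSK3 inhibitor, plus 1 uM PD0325901, a MEK inhibitor, and both sets had been adapted from serum/LIF. Exit from naive pluripotency was started by changing to serum-free medium without 2i or LIF, and RNA was taken at 0, 12, 24 and 40 h, with 2 libraries in each of the 8 groups. Cells from serum/LIF+2i exited in a mix of glutamine-free DMEM and Neurobasal with 2 mM glutamine added, cells from 2i/LIF in their own base medium, so that previous medium and exit medium cannot be told apart. The protocol text gives 24 or 40 h for cells from serum medium, and the 12 h group was taken from the sample titles. No ES cell line is named in the labels, and nothing in them says that the 2 libraries of a group came from separate cultures, so p-values measure the spread between these libraries, which may be technical.

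Epithelial and pluripotent cells sit on a basement membrane, a thin sheet built from laminin and type IV collagen networks that nidogens and perlecan join. A laminin is a trimer of an alpha, a beta and a gamma chain, and integrins, each a pair of an alpha and a beta subunit, bind laminin, fibronectin or collagen outside the cell and the actin cytoskeleton inside it. In the embryo, the epiblast rests on such a membrane as it becomes an epithelium after implantation.

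Promoters are shown for 2 pairs of members that lie near each other in the genome, and for 2 members that fell. Col4a1 and Col4a2 encode the chains of the commonest type IV collagen and are read from opposite strands of chromosome 8. Their annotated first exons overlap by 22 bases. Each window is 300 bases, from 250 before to 50 after the start used in the RefSeq promoter table (GRCm38.p6), written along the gene's own strand. In the first pair, capitals mark the 78 bases (chr8:11312777-11312854) that both windows share, and which each gene reads in the opposite direction.
Col4a1, chr8:11312777-11313076, minus strand: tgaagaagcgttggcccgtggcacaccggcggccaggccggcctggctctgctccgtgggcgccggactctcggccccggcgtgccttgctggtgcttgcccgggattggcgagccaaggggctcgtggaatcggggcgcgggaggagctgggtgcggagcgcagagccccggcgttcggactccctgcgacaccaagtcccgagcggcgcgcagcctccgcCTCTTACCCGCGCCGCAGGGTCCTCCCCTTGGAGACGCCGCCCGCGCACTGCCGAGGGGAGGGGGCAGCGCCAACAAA
Col4a2, chr8:11312555-11312854, plus strand: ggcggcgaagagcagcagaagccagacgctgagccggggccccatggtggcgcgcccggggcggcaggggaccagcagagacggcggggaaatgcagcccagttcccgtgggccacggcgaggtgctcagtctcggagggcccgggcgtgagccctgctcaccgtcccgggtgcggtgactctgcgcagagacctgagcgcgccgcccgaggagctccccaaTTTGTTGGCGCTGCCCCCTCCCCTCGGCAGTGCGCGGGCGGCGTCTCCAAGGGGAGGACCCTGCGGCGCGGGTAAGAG
In the next windows, capitals mark the core of a Sp1 box (GGGCGG), the box CCAAT, an AP-1 site (TGANTCA) or a TCF/LEF site (ATCAAAG), searched on both strands. None of the 4 contains another. Col6a5 and Col6a4 are neighbours on chromosome 9 and encode collagen VI alpha chains, which form beaded filaments around cells.
Col6a5, chr9:105960594-105960893, minus strand: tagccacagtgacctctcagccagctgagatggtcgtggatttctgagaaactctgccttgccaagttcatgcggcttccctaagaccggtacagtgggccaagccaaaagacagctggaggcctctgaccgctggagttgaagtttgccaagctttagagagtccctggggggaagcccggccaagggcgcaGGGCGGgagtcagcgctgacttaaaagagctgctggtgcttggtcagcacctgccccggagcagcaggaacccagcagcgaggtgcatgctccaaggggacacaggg
Col6a4, chr9:106096642-106096941, minus strand: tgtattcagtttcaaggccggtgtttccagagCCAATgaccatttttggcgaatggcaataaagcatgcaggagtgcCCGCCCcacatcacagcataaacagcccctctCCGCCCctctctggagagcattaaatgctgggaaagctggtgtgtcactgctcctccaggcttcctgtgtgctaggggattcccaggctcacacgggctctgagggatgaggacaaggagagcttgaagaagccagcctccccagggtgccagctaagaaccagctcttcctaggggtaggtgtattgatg
Nid1, chr13:13437352-13437651, plus strand: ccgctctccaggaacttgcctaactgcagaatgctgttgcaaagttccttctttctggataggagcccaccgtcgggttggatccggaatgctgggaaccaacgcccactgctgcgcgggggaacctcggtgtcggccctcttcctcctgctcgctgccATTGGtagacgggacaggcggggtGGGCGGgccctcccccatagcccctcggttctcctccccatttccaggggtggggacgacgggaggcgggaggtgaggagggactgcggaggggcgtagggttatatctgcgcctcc
Sparc, chr11:55420031-55420330, minus strand: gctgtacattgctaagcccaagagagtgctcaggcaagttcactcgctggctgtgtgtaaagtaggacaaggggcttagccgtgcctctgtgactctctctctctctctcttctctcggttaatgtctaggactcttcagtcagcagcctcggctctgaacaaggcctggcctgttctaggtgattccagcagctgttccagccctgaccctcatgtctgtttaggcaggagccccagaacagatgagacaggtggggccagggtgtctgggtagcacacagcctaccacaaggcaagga
The Sparc window held 0 matches of these 4 motifs. Across the 46 windows of the 42 members in the promoter table, GGGCGG was found in 67.4%, against 35.7% of all 32851 windows. CCAAT was found in 30.4% against 37.4%, TGANTCA in 4.3% against 7.8%, ATCAAAG in 2.2% against 3.7% and CANNTG (an E-box, not in capitals here) in 58.7% against 72.3%. Such a match is a string of letters and not a measured binding site.

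Libraries held between 5931381 and 11142744 counts, and the replicates of a group correlated with r between 0.991 and 0.995 in log2 CPM (counts scaled to library size). Ribosomal RNA genes took 0.429% to 1.72% of counts. Pou5f1, a marker of pluripotent cells, stood between 635 and 942 CPM in all 8 groups. Other genes of the ES cell list moved. Between 0 and 40 h, mean Nanog went from 665 to 27.8 CPM (2i/LIF) and from 801 to 15.5 CPM (serum/LIF+2i). Means of Zfp42, Sox2 and Dppa5a were also lower at 40 h in both media. Lin28a went from 76.1 to 815 CPM and from 113 to 850.4 CPM, and Utf1 was also higher in both. Tdgf1 was higher at 40 h in cells from 2i/LIF and lower in the other set. Several defining markers of cells known for secreting matrix were low. In the primitive and parietal endoderm list, whose cells lay down thick basement membrane, Gata6, Sox17, Sox7 and Foxa2 had means of at most 0.943 CPM in all groups. Gata4, of the same list, had means of 2.27 and 1.59 CPM at 0 and 40 h in cells from 2i/LIF, and 2.42 and 3.71 CPM in the other set. The summed level of all 13 genes of that list ran from 65.9 to 67.6 CPM at 0 h and from 26.8 to 27.9 at 40 h in cells from 2i/LIF, and from 43.0 to 49.5 and from 30.8 to 31.3 in cells from serum/LIF+2i, with Fst as its largest member at 0 h (54.1 and 35.2 CPM, and 10.1 and 7.47 CPM at 40 h). Without Fst, the sum of the means of the other 12 went from 12.6 to 17.2 CPM in cells from 2i/LIF and from 11.1 to 23.5 CPM in cells from serum/LIF+2i, above its level at 0 h in both. Of these, Dab2 had means of 1.12 and 8.43 CPM at 0 and 40 h in cells from 2i/LIF and 2.72 and 9.77 CPM in the other set, and Plat 0.887 and 2.10 CPM, and 0.955 and 3.39 CPM. Cubn went from 0.172 to 1.10 CPM and from 0 to 2.09 CPM, while means of Srgn and Pdgfra were lower at 40 h in both media. Of 11 fibroblast genes, Prrx1 and Postn were at 0 counts in all libraries, and the sum ran from 16.7 to 18.6 CPM at 0 h and from 18.5 to 24.2 at 40 h in cells from 2i/LIF. In cells from serum/LIF+2i it ran from 12.5 to 12.6 and from 14.5 to 16.9. Pdgfrb, the largest member of the fibroblast list at 0 h, went from 12.9 to 1.24 CPM in cells from 2i/LIF. In the other set Pdgfrb went from 5.36 to 2.49 CPM, and Tbx15 was lower at 40 h in both. Thy1 went from 0.573 to 5.05 CPM and from 1.32 to 2.99 CPM. Twist1 went from 0.497 to 2.41 CPM and from 0.808 to 3.45 CPM. Dcn, a fibroblast proteoglycan, was at 0 in both media at 0 h and at means of 11.2 CPM (2i/LIF) and 4.74 CPM (serum/LIF+2i) at 40 h. The summed trophoblast list (8 genes) ran from 27.9 to 30.0 CPM at 0 h and from 5.03 to 6.89 at 40 h in cells from 2i/LIF, and from 38.5 to 39.8 and 5.17 to 5.90 in cells from serum/LIF+2i. A neural list (6 genes) ran from 60.1 to 63.3 CPM at 0 h and from 135 to 136 at 40 h in cells from 2i/LIF, and from 57.1 to 61.6 and from 153 to 155 in cells from serum/LIF+2i. A mesendoderm list (7 genes) ran from 32.8 to 40.3 CPM and from 4.13 to 4.62 in cells from 2i/LIF, and from 22.2 to 29.97 and from 5.81 to 6.03 in the other set. The part of such cells in the changes below was not tested, and in bulk RNA fewer cells of a type and less RNA per cell cannot be told apart.

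By 40 h, laminin and other basement membrane transcripts had mostly fallen, while Col18a1, Col4a1 and several integrin subunits had risen in both media. In cells from 2i/LIF, 41 of 59 tested members were called at 40 h against 0 h (adjusted p under 0.05 in edgeR's quasi-likelihood test), against 68.8% of all 14288 genes. Of these, 21 were higher (34.1% of all genes were) and 20 lower (34.7%). In cells from serum/LIF+2i, 43 were called against 70.5% of all genes, 25 higher and 18 lower, with 35.3% of all genes in each direction. These shares are near the background, so that the number of members called is not itself a result. The median log2 fold change of the members was 0.27 and 0.28, beside 0.01 and -0.00 over all genes. The rule of choice bears on these counts and medians. Col1a2, Col6a2, Col6a6, Col11a2, Col16a1, Col4a5 and Itga2b met it only with the 40 h libraries. Of those tested, Col6a2 and Col6a6 were called higher in both media, and Col11a2 and Itga2b in cells from serum/LIF+2i. Earlier, 34 members were called at 12 h and 39 at 24 h in cells from 2i/LIF (44.7% and 58.8% of all genes), and 34 and 41 in cells from serum/LIF+2i (51.2% and 64.4%). Between 12 and 24 h, 26 members were called in cells from 2i/LIF (35.1% of all genes) and 33 in the other set (48.4%), and between 24 and 40 h, 35 (46.7%) and 37 (50.5%). Of the 59, 18 were higher and 16 lower at 40 h in both media, and Itga5 alone was called in opposite directions. The share of all genes called alike or oppositely in both media was not counted, so these counts have no background and are a description only. Called in cells from serum/LIF+2i alone were Col1a1, Col5a2, Col9a3, Col11a2, Itga2b and Itga8 as higher and Itga7 and Itgb3 as lower, all at or under 3.68 CPM in every library. Called in cells from 2i/LIF alone were Col2a1, Col4a2 and Col5a1 as higher and Col9a2, Col20a1 and Itgb4 as lower. Of these 14, the difference between the 2 changes from 0 to 40 h (serum/LIF+2i less 2i/LIF) was itself called for Col2a1, Col4a2, Col5a1, Col9a2 and Itgb4. The 10 called in neither were Col1a2, Col5a3, Col17a1, Col27a1, Itga4, Itga10, Itgae, Itgb7, Lama4 and Lamb3, all but Itgb7 at or under 8.51 CPM.

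**Figure D1:**
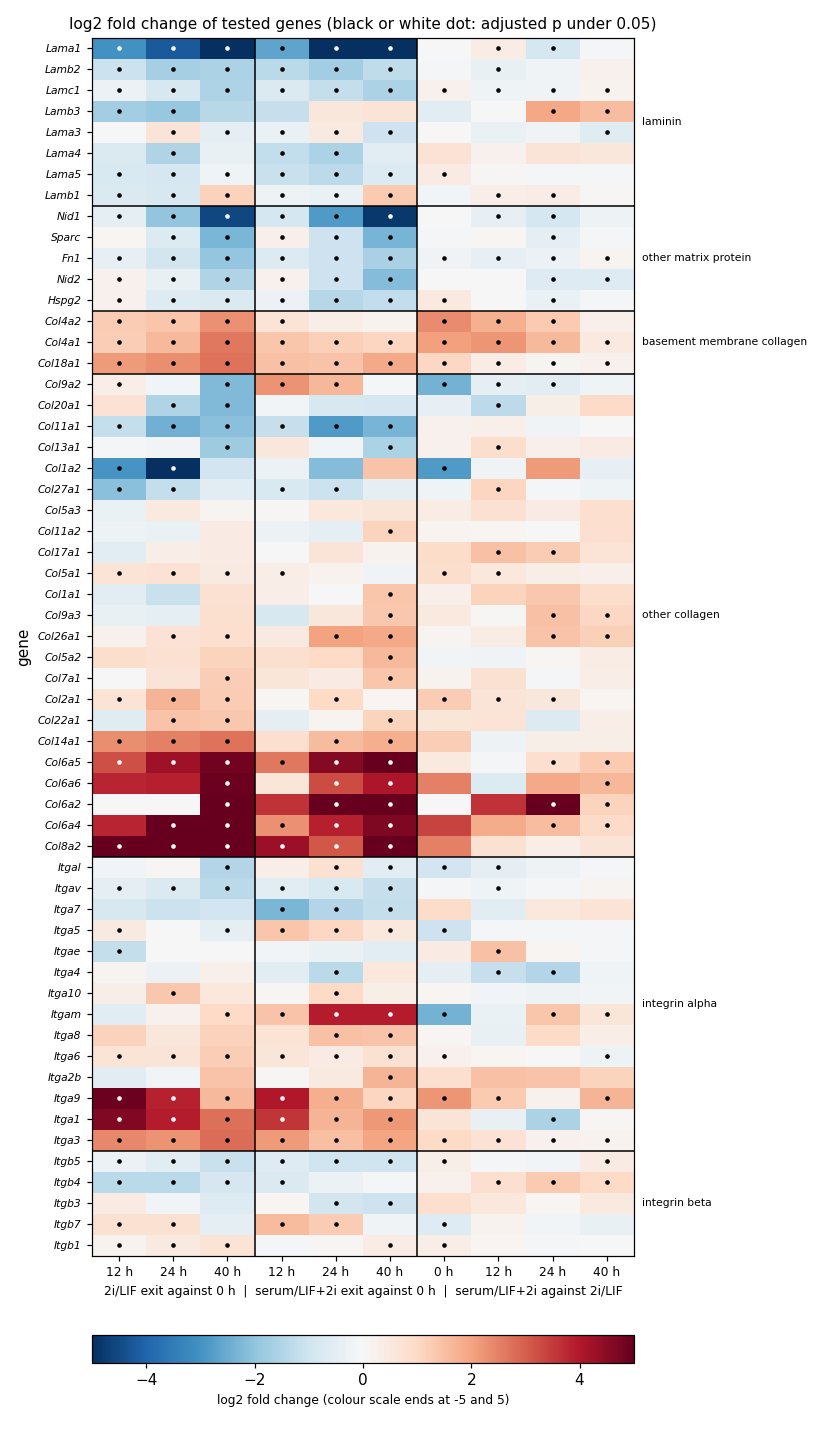
Log2 fold change (colour, scale ending at -5 and 5) of tested genes (rows, grouped by role) at 12, 24 and 40 h against 0 h in each medium, and between the media at each time (columns). Dots mark an adjusted p under 0.05. Laminins and other matrix proteins are mostly blue in the exit columns, and Col18a1, Col4a1 and the collagen VI genes are red.

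Most laminin chains fell. At 40 h, 6 of the 9 chains were lower and 1, Lamb1, was higher in each medium. Of all genes, 34.7% were lower and 34.1% higher in cells from 2i/LIF, and 35.3% each way in cells from serum/LIF+2i. The median log2 fold change of the 9 was -1.37 in cells from 2i/LIF and -1.02 in cells from serum/LIF+2i, beside 0.01 and -0.00 over all genes. Levels are given in CPM for both libraries, and where a pair of changes is given the first is that of cells from 2i/LIF. Lama1, the alpha chain of the first laminin of the embryo (chr17:67697259-67822647), showed the largest fall of the set. In cells from 2i/LIF its level was 170.1 and 154 at 0 h, 19.7 and 20.2 at 12 h, 7.91 and 9.73 at 24 h, and 3.76 and 4.62 at 40 h. In cells from serum/LIF+2i it was 156 and 173 at 0 h, 23.8 and 28.1 at 12 h, 5.42 and 4.28 at 24 h, and 3.96 and 3.77 at 40 h. Most of the fall had happened by 12 h, and every library at 12 h lay below every library at 0 h. The log2 fold change at 40 h was -5.27 ± 0.12 (SE; adjusted p = 3.75e-73) in cells from 2i/LIF and -5.40 ± 0.11 (adjusted p = 5.44e-79) in cells from serum/LIF+2i.

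Lamc1, the gamma chain found in most laminins, was the most abundant laminin gene per kilobase of transcript at 0 and at 40 h in both media. In CPM it stood at 1016 and 1007 at 0 h, 835 and 834 at 12 h, 585 and 573 at 24 h, and 349.8 and 353 at 40 h. The set from serum/LIF+2i stood at 1182 and 1196 at 0 h, 713 and 729 at 12 h, 525 and 513 at 24 h, and 413 and 387 at 40 h. Each step was downward, and the log2 fold change at 40 h was -1.53 ± 0.04 (adjusted p = 9.21e-70) and -1.57 ± 0.04 (adjusted p = 1.45e-72). Lamb2, a beta chain, fell as well. Levels of Lamb2 were 88.2 and 98.1 at 0 h, 42.5 and 45.2 at 12 h, 30.8 and 28.9 at 24 h, and 32.1 and 30.7 at 40 h. In the other medium they were 82.4 and 91.9 at 0 h, 33.5 and 34.5 at 12 h, 26.1 and 26.7 at 24 h, and 37.2 and 35.3 at 40 h. Most of the fall lay before 24 h, and at 40 h the log2 fold change was -1.57 ± 0.08 (adjusted p = 4.77e-36) and -1.26 ± 0.08 (adjusted p = 6.52e-32). Lamb1, the other abundant beta chain, moved the other way after 24 h. It measured 44.98 and 45.6 at 0 h, 27.3 and 28.2 at 12 h, 26.7 and 25.1 at 24 h, and 102 and 97.4 at 40 h. From serum/LIF+2i it measured 36.9 and 46.6 at 0 h, 35.95 and 34.1 at 12 h, 33.96 and 32.5 at 24 h, and 98.3 and 109.5 at 40 h. In both sets the 40 h libraries were far above all earlier ones, with a log2 fold change between 24 and 40 h of 1.95 ± 0.09 (adjusted p = 5.62e-42) and 1.64 ± 0.07 (adjusted p = 1.77e-42), and against 0 h of 1.14 ± 0.08 (adjusted p = 8.27e-27) and 1.31 ± 0.07 (adjusted p = 1.64e-33).

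Lama5 (named after its values were seen), the alpha chain of the laminins on which pluripotent cells are commonly grown, dipped and came part of the way back. Its level was 424 and 409 at 0 h, 250.4 and 244 at 12 h, 227 and 245 at 24 h, and 358 and 354 at 40 h. In the serum-derived set the values were 549.9 and 546 at 0 h, 257 and 253 at 12 h, 219 and 219.9 at 24 h, and 346 and 329 at 40 h. The level at 40 h lay between those at 0 and 24 h. Its log2 fold change between 24 and 40 h was 0.60 ± 0.04 (adjusted p = 3.99e-26) and 0.62 ± 0.04 (adjusted p = 5.44e-29), and at 40 h against 0 h it was -0.22 ± 0.04 (adjusted p = 3.09e-07) and -0.70 ± 0.04 (adjusted p = 2.4e-35). Lama3, an alpha chain of skin and other epithelial laminins, was highest at 24 h. Lama3 was at 18.96 and 21.9 at 0 h, 20.01 and 20.2 at 12 h, 34.6 and 28.9 at 24 h, and 18.03 and 12.1 at 40 h. After serum/LIF+2i it was at 21.9 and 18.9 at 0 h, 16.4 and 15.97 at 12 h, 28.4 and 27.8 at 24 h, and 10.9 and 9.19 at 40 h. The 2 libraries at 40 h from 2i/LIF differed from each other, at 18.0 and 12.1 CPM. Its change against 0 h was -0.43 ± 0.14 (adjusted p = 0.00565) and -1.02 ± 0.14 (adjusted p = 4.02e-10). The call in cells from 2i/LIF was lost without replicate 2 at 40 h (log2 fold change -0.18, adjusted p = 0.322), without replicate 2 at 0 h (-0.32, adjusted p = 0.13) and in DESeq2 (-0.42, adjusted p = 0.0589). Lama4 and Lamb3 stayed at or under 2.79 CPM in all libraries.

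**Figure D2:**
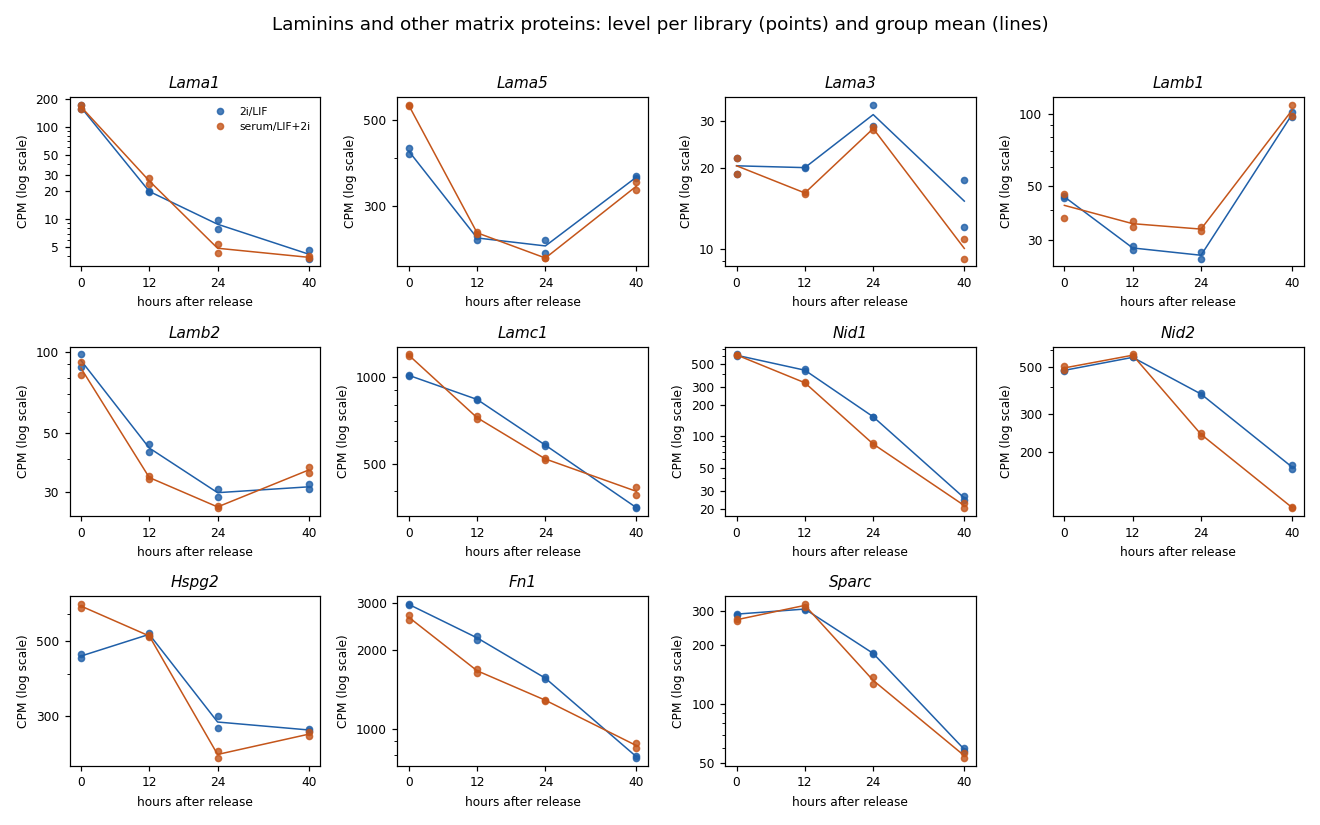
Level of laminin and other matrix genes in CPM (log scale) against hours after release. Points are libraries (2 a group) and lines join group means, blue for 2i/LIF and orange for serum/LIF+2i. Lama1 and Nid1 end far below their start, Lamb1 turns up between 24 and 40 h, and Lama5 dips and then rises part of the way back.

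Per kilobase, the make-up of the laminin alpha and beta chains shifted. Among alpha chains, Lama1 held 30.5% ± 1.02 (SD, n = 2) at 0 h and 1.32% ± 0.215 at 40 h in cells from 2i/LIF, and 25.5% ± 1.63 and 1.30% ± 0.0031 in cells from serum/LIF+2i. Lama5 held 65.5% ± 0.628 and 93.8% ± 0.842 in the first set, and 70.98% ± 1.17 and 94.7% ± 0.074 in the second. Among beta chains, Lamb1 held, at 0, 24 and 40 h, 31.7% ± 1.10, 45.4% ± 0.377 and 75.2% ± 0.248 in cells from 2i/LIF, and 31.3% ± 2.22, 53.3% ± 1.86 and 72.4% ± 1.58 in cells from serum/LIF+2i. Lamb2 held 66.9% ± 2.08 at 0 h and 24.3% ± 0.00044 at 40 h, and 67.6% ± 1.12 and 26.04% ± 2.39. In each case the shift between 0 and 40 h exceeded the spread of the 2 libraries. Shares of this kind sum to 100, so that a fall of 1 chain raises the others.

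**Figure D3:**
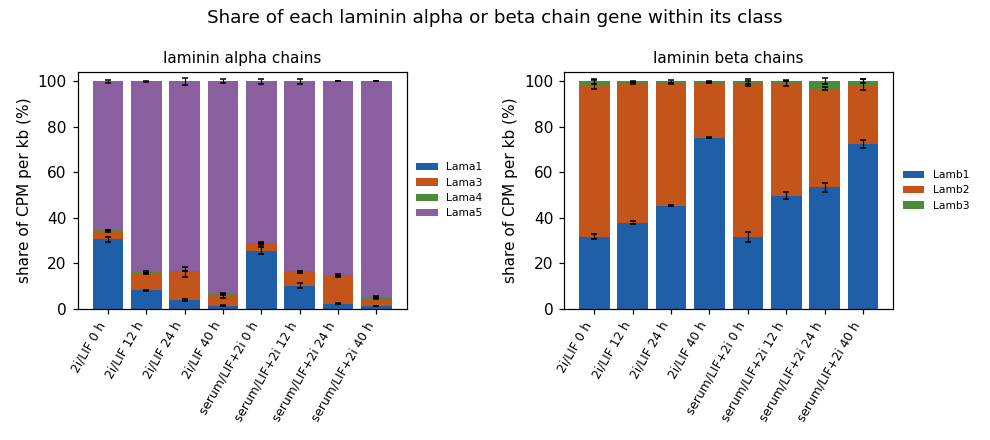
Share of each laminin alpha or beta chain gene within its class (% of CPM per kilobase), as means of 2 libraries for the 8 groups, with error bars of 1 SD at the top of each segment. The Lama1 segment shrinks from 30.5% and 25.5% at 0 h to 1.32% and 1.30% at 40 h, and Lamb1 replaces Lamb2 as the largest beta chain.

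All 5 further matrix proteins were lower at 40 h in both media, beside 34.7% (2i/LIF) and 35.3% (serum/LIF+2i) of all genes. Nid1, which links laminin to type IV collagen, fell most. Its CPM came to 592 and 616 at 0 h, 425 and 442 at 12 h, 155 and 153 at 24 h, and 26.6 and 24.5 at 40 h. Starting from serum/LIF+2i it came to 612 and 605 at 0 h, 332 and 324 at 12 h, 86.3 and 82.4 at 24 h, and 22.8 and 20.3 at 40 h. The media were level at 0 h and apart at 24 h, where both libraries from serum/LIF+2i lay below those from 2i/LIF. Against 0 h, the log2 fold change at 40 h was -4.56 ± 0.06 (adjusted p = 1.8e-101) in cells from 2i/LIF and -4.81 ± 0.05 (adjusted p = 1.41e-106) in cells from serum/LIF+2i. Nid2, its relative, was above its starting level at 12 h and below it at 24 and 40 h. In order of time it was at 483 and 478 at 0 h, 552 and 553 at 12 h, 370.1 and 374 at 24 h, and 173 and 166 at 40 h. From the other medium it was at 484 and 503 at 0 h, 560.2 and 571 at 12 h, 245 and 237 at 24 h, and 110.5 and 109 at 40 h. The rise at 12 h was 0.20 ± 0.04 (adjusted p = 1.97e-06) and 0.20 ± 0.04 (adjusted p = 1.79e-06), and the change at 40 h -1.50 ± 0.04 (adjusted p = 9.62e-64) and -2.17 ± 0.04 (adjusted p = 1.14e-80). About 8.45% of the exonic bases of Nid2 overlap Rtraf on the opposite strand.

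Fn1, fibronectin, the ligand of several integrins, was the most abundant member per kilobase at 0, 12 and 24 h in both media. Its level was 2971 and 2958 at 0 h, 2179 and 2252 at 12 h, 1545 and 1573 at 24 h, and 795 and 778 at 40 h. The serum-derived set gave 2596 and 2704 at 0 h, 1638 and 1690.2 at 12 h, 1295 and 1279 at 24 h, and 886 and 848 at 40 h. Each time lay below the one before it, and at 40 h the log2 fold change was -1.91 ± 0.03 (adjusted p = 5.97e-84) and -1.61 ± 0.03 (adjusted p = 9.19e-77). Sparc, which binds collagen, was not below its starting level until after 12 h. It was measured at 287 and 291 at 0 h, 309 and 305 at 12 h, 183 and 181 at 24 h, and 57.6 and 59.9 at 40 h. From serum/LIF+2i it was measured at 268 and 273 at 0 h, 325 and 316 at 12 h, 138 and 127 at 24 h, and 53.1 and 56.03 at 40 h. All libraries at 24 and 40 h lay below all libraries at 0 and 12 h, and the changes at 40 h were -2.30 ± 0.05 (adjusted p = 3.69e-71) and -2.31 ± 0.05 (adjusted p = 5.04e-74). Hspg2, the core of the heparan sulphate proteoglycan perlecan, changed by -0.72 ± 0.04 (adjusted p = 2.31e-34) and -1.24 ± 0.04 (adjusted p = 4.81e-59). Its libraries ran from 272 to 527 CPM in cells from 2i/LIF and from 227 to 639 CPM in the other set. Mean Hspg2 at 0, 12, 24 and 40 h was 451, 522, 289 and 274 CPM in cells from 2i/LIF. In cells from serum/LIF+2i it was 631, 516, 232 and 266 CPM. By 12 h the mean was thus higher in the first set and lower in the second, with a difference of the 2 changes of -0.50 ± 0.05. The sum of all 62 members went from 7435 ± 0.93 CPM (SD, n = 2) at 0 h to 3773 ± 25.3 at 40 h in cells from 2i/LIF, and from 7775 ± 139.9 to 3988 ± 60.5 in cells from serum/LIF+2i.

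Basement membrane collagens were higher over the same hours, 3 of 3 tested at 40 h in cells from 2i/LIF and 2 of 3 in cells from serum/LIF+2i. Of all genes, 34.1% and 35.3% were higher. Col18a1, whose chain carries the endostatin fragment and sits in basement membranes, was the most abundant collagen per kilobase at 0 and 40 h in both media, and at 40 h it stood above every other member. Per kilobase its mean level at 40 h was 104 CPM in cells from 2i/LIF and 120.4 CPM in cells from serum/LIF+2i, beside 94.6 and 104 CPM for Fn1. In cells from 2i/LIF it was at 91.3 and 94.02 at 0 h, 391 and 427 at 12 h, 464 and 471 at 24 h, and 596 and 611 at 40 h. Levels in the serum-derived set were 183 and 195 at 0 h, 517 and 531 at 12 h, 509 and 508 at 24 h, and 704 and 690.3 at 40 h. The largest step was the first 12 h, and no library at 0 h reached any later one. The log2 fold change at 40 h was 2.70 ± 0.05 (adjusted p = 3.29e-86) in cells from 2i/LIF and 1.88 ± 0.04 (adjusted p = 2.91e-75) in cells from serum/LIF+2i. Col4a1 encodes a chain of the type IV network. In CPM it was 2.41 and 3.65 at 0 h, 7.26 and 7.09 at 12 h, 7.64 and 11.2 at 24 h, and 19.2 and 19.02 at 40 h. With serum before, it was 12.3 and 12.9 at 0 h, 33.2 and 32.7 at 12 h, 29.97 and 27.6 at 24 h, and 26.5 and 26.9 at 40 h. In cells from 2i/LIF the highest libraries were those at 40 h, in the other set those at 12 h. At 40 h the log2 fold change was 2.63 ± 0.21 (adjusted p = 1.47e-22) in cells from 2i/LIF and 1.08 ± 0.13 (adjusted p = 6.52e-13) in cells from serum/LIF+2i. Col4a2 is its neighbour and partner chain. Its values were 1.21 and 1.52 at 0 h, 3.56 and 3.07 at 12 h, 3.47 and 3.80 at 24 h, and 7.39 and 6.25 at 40 h. The serum-derived libraries held 7.20 and 7.05 at 0 h, 10.00 and 12.5 at 12 h, 9.51 and 8.36 at 24 h, and 8.45 and 7.65 at 40 h. Its log2 fold change at 40 h was 2.30 ± 0.33 (adjusted p = 5.13e-10) in cells from 2i/LIF and 0.18 ± 0.19 (adjusted p = 0.417) in cells from serum/LIF+2i. Col4a5, a type IV chain of other membranes, stayed at or under 1.74 CPM and was not tested.

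Among the other 25 collagens, 23 were tested, 11 higher and 4 lower at 40 h in cells from 2i/LIF and 13 and 2 in cells from serum/LIF+2i, beside 34.1% and 34.7%, and 35.3% each way, of all genes. The rule of choice bears on these counts, because 5 of the 25 (Col1a2, Col6a2, Col6a6, Col11a2 and Col16a1) met it only with the 40 h libraries, and 2 and 3 of the higher calls are theirs. All were below 50 CPM. Col6a5 rose most among those with a mean of at least 5 CPM. It stood at 0.689 and 0.456 at 0 h, 6.03 and 4.81 at 12 h, 11.4 and 10.5 at 24 h, and 15.03 and 17.8 at 40 h. After serum/LIF+2i it stood at 0.441 and 1.17 at 0 h, 4.19 and 5.85 at 12 h, 19.02 and 20.7 at 24 h, and 39.99 and 41.1 at 40 h. From 24 h on, both libraries from serum/LIF+2i lay above those from 2i/LIF. The log2 fold change at 40 h was 4.82 ± 0.32 (adjusted p = 6.96e-28) in cells from 2i/LIF and 5.62 ± 0.22 (adjusted p = 2.61e-47) in cells from serum/LIF+2i. It rests on 3 to 8 counts per library at 0 h. Its neighbours Col6a4 and Col6a6 were called higher at 40 h in both media at lower levels, Col6a4 at 2.13 and 2.17 CPM (2i/LIF) and 4.31 and 3.97 CPM (serum/LIF+2i) at 40 h, and Col6a6 at or under 1.47 CPM. In cells from 2i/LIF, Col6a4 had 0 counts at 0 h, which makes it at least 4.42-fold higher at 40 h against a floor of 3 counts per library. Col6a2, on another chromosome, also had 0 counts at 0 h in both media and was at least 3.07-fold higher at 40 h in cells from 2i/LIF and at least 7.48-fold in cells from serum/LIF+2i. Col6a1, the chain that joins it in classical collagen VI, reached 7 counts in its highest library and is no member. Col8a2, a collagen of the short-chain network type, was at least 4.99-fold higher at 40 h in cells from 2i/LIF. These low collagens were named after their values were seen.

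Fibrillar and fibril-associated collagens moved in both directions. Col2a1, the main collagen of cartilage, peaked at 24 h. Its levels were 4.31 and 5.16 at 0 h, 8.22 and 7.09 at 12 h, 15.4 and 15.5 at 24 h, and 10.5 and 12.4 at 40 h. After serum/LIF+2i they were 9.84 and 13.1 at 0 h, 11.9 and 11.8 at 12 h, 21.5 and 24.5 at 24 h, and 12.1 and 12.3 at 40 h. The second set started higher and both ended between 10.5 and 12.4 CPM. The change at 40 h was 1.26 ± 0.21 (adjusted p = 1.07e-07) and 0.09 ± 0.16 (adjusted p = 0.629), and in the latter set it turned to -0.11 (adjusted p = 0.645) without replicate 1 at 0 h. Col9a2, a cartilage collagen that sits on the surface of fibrils, went its own way in each medium. From 2i/LIF it was at 16.2 and 18.1 at 0 h, 21.7 and 21.5 at 12 h, 16.8 and 14.6 at 24 h, and 3.88 and 3.53 at 40 h. From serum/LIF+2i it was at 3.23 and 3.38 at 0 h, 16.4 and 15.2 at 12 h, 11.7 and 9.37 at 24 h, and 3.10 and 3.29 at 40 h. Before exit it was high in 1 medium and low in the other, and at 40 h all 4 libraries were between 3.10 and 3.88 CPM. Its change at 12 h was 0.33 ± 0.14 (adjusted p = 0.0454) and 2.25 ± 0.21 (adjusted p = 3.8e-18), and at 40 h -2.21 ± 0.20 (adjusted p = 7.93e-19) and -0.05 ± 0.28 (adjusted p = 0.881).

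Col26a1, a little-studied collagen, rose in cells from serum/LIF+2i. In the serum-free set it was at 3.96 and 3.04 at 0 h, 3.97 and 4.14 at 12 h, 6.53 and 5.01 at 24 h, and 5.64 and 6.93 at 40 h. In the serum-derived set it was at 2.79 and 4.85 at 0 h, 4.32 and 5.96 at 12 h, 13.3 and 17.6 at 24 h, and 14.6 and 14.2 at 40 h. Only the 24 and 40 h libraries of the serum-derived set passed 10 CPM. The changes at 40 h were 0.85 ± 0.27 (adjusted p = 0.00442) and 1.91 ± 0.21 (adjusted p = 8.06e-15). The first of these was lost without replicate 2 at 0 h (log2 fold change 0.66, adjusted p = 0.0907) or replicate 2 at 40 h (0.70, adjusted p = 0.0574). Col11a1, a fibrillar collagen, and Col13a1, a transmembrane collagen, fell. Col11a1 went from 6.38 and 5.32 CPM to 1.50 and 1.22 in cells from 2i/LIF, and from 7.20 and 6.46 to 1.72 and 0.968 in the other set. Its log2 fold change at 40 h was -2.08 ± 0.35 (adjusted p = 1.03e-07) and -2.31 ± 0.30 (adjusted p = 3.38e-11). Col13a1 went from 3.10 and 3.65 to 0.626 and 1.36, and from 3.82 and 4.11 to 1.64 and 0.968, with -1.78 ± 0.43 (adjusted p = 0.000143) and -1.58 ± 0.35 (adjusted p = 3.19e-05). Col1a1 and Col1a2, the chains of the main collagen of bone and skin, stayed at or under 2.73 CPM in all libraries, and Col3a1 had at most 4 counts in any.

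**Figure D4:**
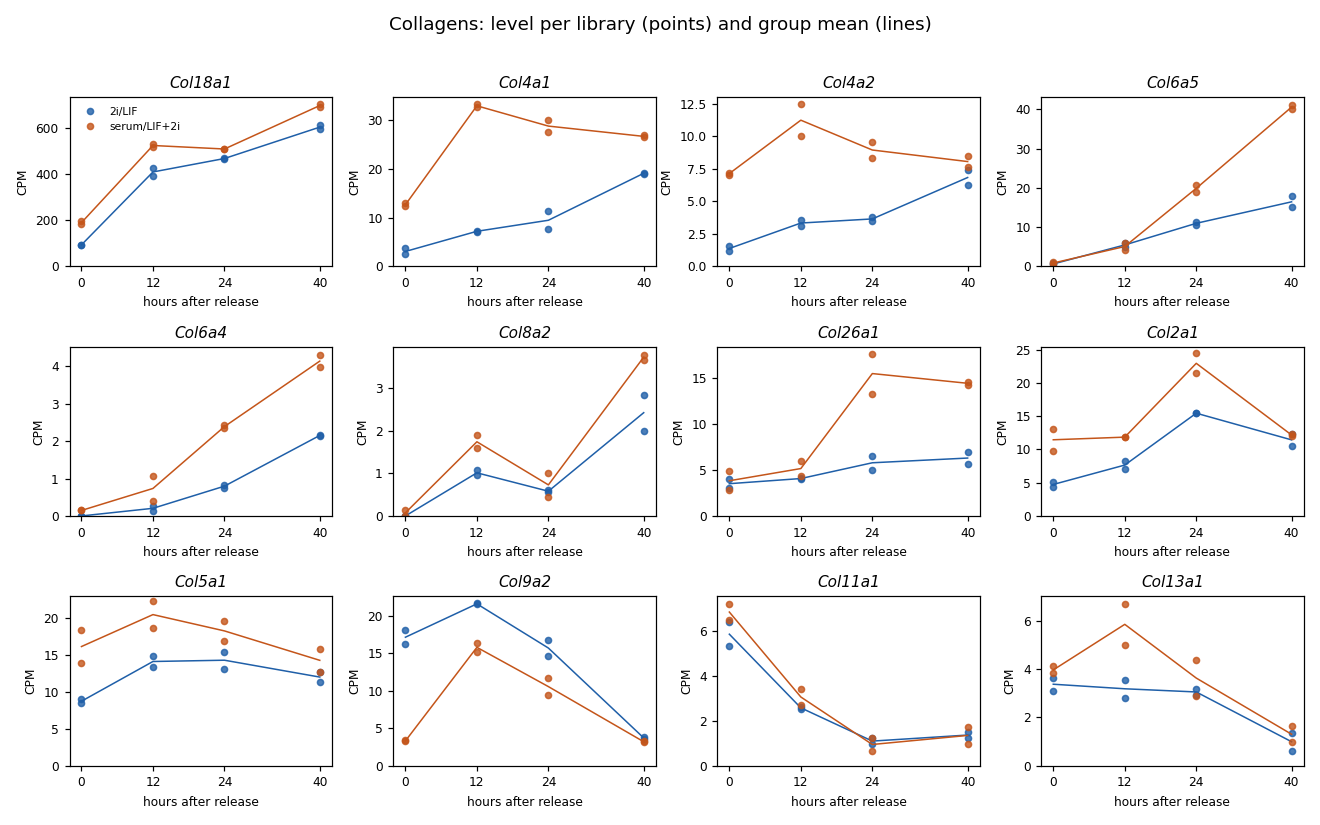
Level of 12 collagens in CPM (linear axes from 0) against hours after release, with points for libraries and lines for group means, blue for 2i/LIF and orange for serum/LIF+2i. Col18a1 and Col6a5 climb in both media, Col4a1 and Col4a2 start higher in serum/LIF+2i, and Col9a2 starts apart and ends together near 3 CPM.

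Of 14 integrin alpha subunits tested, 5 were higher and 3 lower at 40 h in cells from 2i/LIF, beside 34.1% and 34.7% of all genes, and 8 and 3 in cells from serum/LIF+2i, beside 35.3% each way. Itga2b, 1 of the 8 called higher in cells from serum/LIF+2i, met the rule of choice only with the 40 h libraries. Among the abundant alpha subunits, Itga3 and Itga6 rose. Itga7, another laminin receptor subunit, reached at most 2.94 CPM in any library and changed by -0.96 ± 0.57 (adjusted p = 0.126) and -1.20 ± 0.40 (adjusted p = 0.00529). Itga3 and Itga6 each pair with Itgb1 to bind laminin. Itga3 was at 22.2 and 17.5 at 0 h, 103 and 104 at 12 h, 96.6 and 92.4 at 24 h, and 135 and 136 at 40 h. In cells from serum/LIF+2i it was at 38.5 and 40.1 at 0 h, 173 and 173 at 12 h, 109 and 113 at 24 h, and 157 and 151 at 40 h. All libraries after 0 h were above all libraries at 0 h. Its log2 fold change at 40 h was 2.78 ± 0.08 (adjusted p = 1.63e-60) in cells from 2i/LIF and 1.97 ± 0.06 (adjusted p = 1.05e-55) in cells from serum/LIF+2i. Itga6 was the most abundant alpha subunit per kilobase in both media at 0 and at 40 h. Its CPM was 109 and 102 at 0 h, 164 and 179.5 at 12 h, 164 and 169.7 at 24 h, and 239 and 255 at 40 h. In the serum-derived set it was 121 and 125 at 0 h, 183 and 188 at 12 h, 167 and 160.4 at 24 h, and 205 and 213 at 40 h. The increase was larger in cells from 2i/LIF, 1.23 ± 0.05 (adjusted p = 1.83e-44), than in cells from serum/LIF+2i, 0.76 ± 0.05 (adjusted p = 6.21e-29), and the difference of the 2 changes was -0.46 ± 0.07 (adjusted p = 1.34e-07). Among alpha subunits per kilobase, Itga3 held 5.59% ± 0.949 (SD, n = 2) at 0 h and 24.2% ± 0.509 at 40 h in cells from 2i/LIF, and 12.03% ± 0.214 and 28.3% ± 0.795 in cells from serum/LIF+2i.

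Subunits that bind the RGD motif of fibronectin and other ligands differed among themselves. Itga8 and Itga2b, at most 2.499 CPM in any library, changed by 1.17 ± 0.68 (adjusted p = 0.121) and 1.43 ± 0.59 (adjusted p = 0.0243), and by 1.42 ± 0.75 (adjusted p = 0.0847) and 1.70 ± 0.51 (adjusted p = 0.00204). Itgav fell. It was at 94.96 and 105 at 0 h, 69.9 and 75.4 at 12 h, 61.6 and 60.3 at 24 h, and 40.2 and 37.5 at 40 h. From the other medium it was at 99.2 and 89.4 at 0 h, 62.4 and 63.3 at 12 h, 58.4 and 54.3 at 24 h, and 43.1 and 42.8 at 40 h. The 40 h libraries were the lowest in each set, with -1.37 ± 0.08 (adjusted p = 8.59e-34) and -1.13 ± 0.07 (adjusted p = 1.24e-30) at 40 h, and 5.90% of its exonic bases overlap a gene on the opposite strand. Itga5, the fibronectin receptor's alpha subunit, was highest at 12 h. Its level was 96.2 and 102 at 0 h, 136 and 134 at 12 h, 100.4 and 104 at 24 h, and 73.3 and 69.6 at 40 h. Its level from serum/LIF+2i was 46.6 and 49.6 at 0 h, 124 and 130.1 at 12 h, 96.1 and 101 at 24 h, and 71.01 and 67.1 at 40 h. From 12 h on the sets ran close together, while at 0 h the serum-derived libraries were the lower. The change against 0 h had opposite signs at 40 h, -0.48 ± 0.07 (adjusted p = 1.39e-10) and 0.52 ± 0.07 (adjusted p = 7.67e-11).

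Both Itga9, which binds tenascin and other ligands, and Itga1, a collagen receptor subunit, peaked at 12 h. Itga9 measured 0.862 and 0.608 at 0 h, 21.2 and 23.3 at 12 h, 9.16 and 12.3 at 24 h, and 2.63 and 1.90 at 40 h. With serum/LIF+2i before exit it measured 3.38 and 3.52 at 0 h, 56.4 and 54.9 at 12 h, 12.6 and 11.9 at 24 h, and 7.33 and 7.45 at 40 h. The 12 h libraries stood above all others in each set. Its log2 fold change at 12 h was 4.91 ± 0.28 (adjusted p = 9.6e-33) and 4.003 ± 0.16 (adjusted p = 1.47e-47), and at 40 h 1.63 ± 0.49 (adjusted p = 0.00195) and 1.09 ± 0.23 (adjusted p = 1.31e-05). Itga1 was at 0.345 and 0.304 at 0 h, 7.54 and 8.96 at 12 h, 5.14 and 5.01 at 24 h, and 1.75 and 2.85 at 40 h. In the other set it was at 0.441 and 0.587 at 0 h, 6.89 and 5.85 at 12 h, 1.33 and 2.04 at 24 h, and 2.33 and 2.42 at 40 h. The 12 h libraries were again the highest, with 4.61 ± 0.45 (adjusted p = 1.18e-16) and 3.58 ± 0.41 (adjusted p = 3.56e-13), and 2.76 ± 0.61 (adjusted p = 3.34e-05) and 2.17 ± 0.50 (adjusted p = 6.31e-05) at 40 h. The changes of Itga1 rest on 2 to 4 counts per library at 0 h, and those of Itga9 in cells from 2i/LIF on 9 counts over both libraries.

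Itgam and Itgal encode alpha subunits that leukocytes pair with Itgb2, which had at most 7 counts in any library here. Itgam was at 5.17 and 4.71 at 0 h, 2.06 and 4.55 at 12 h, 6.39 and 4.86 at 24 h, and 6.76 and 12.9 at 40 h. Its values after serum/LIF+2i were 0.882 and 1.03 at 0 h, 2.03 and 3.09 at 12 h, 15.3 and 14.2 at 24 h, and 13.9 and 15.9 at 40 h. The serum-derived set started lowest and reached the highest levels from 24 h on, and the 2 libraries at 40 h from 2i/LIF were far apart. The log2 fold change at 40 h was 0.98 ± 0.25 (adjusted p = 0.000448) in cells from 2i/LIF and 3.94 ± 0.31 (adjusted p = 2.61e-18) in cells from serum/LIF+2i. Without replicate 2 at 40 h, the value for 2i/LIF was 0.46 (adjusted p = 0.166). In the GENCODE annotation, 68.7% of the exonic bases of Itgam (chr7:128062640-128118491) are shared with another model on the same strand, Gm49368, so that its counts are uncertain. Itgal was at 18.4 and 19.7 at 0 h, 17.3 and 17.6 at 12 h, 19.6 and 20.1 at 24 h, and 7.77 and 6.11 at 40 h. From serum/LIF+2i it was at 9.70 and 9.99 at 0 h, 11.4 and 13.2 at 12 h, 17.9 and 15.8 at 24 h, and 6.98 and 6.19 at 40 h. It was lower at 40 h than at 24 h in every library, with -1.50 ± 0.16 (adjusted p = 3.68e-14) and -1.35 ± 0.15 (adjusted p = 5.47e-14) over that step.

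Of 5 beta subunits tested, 1 was higher and 2 lower at 40 h in each medium. These counts are near the shares of all genes, 34.1% higher and 34.7% lower in cells from 2i/LIF and 35.3% each way in cells from serum/LIF+2i. Itgb1, the partner of most alpha subunits named above, was the most abundant per kilobase at 0 and 40 h. It went through 187 and 178 at 0 h, 209 and 199.9 at 12 h, 251 and 251 at 24 h, and 275 and 308 at 40 h. Serum-derived cells went through 225 and 229 at 0 h, 222 and 216 at 12 h, 229 and 239 at 24 h, and 292 and 302 at 40 h. The 40 h libraries were the highest in each set. Its change at 40 h was 0.68 ± 0.05 (adjusted p = 2.08e-27) in cells from 2i/LIF and 0.39 ± 0.04 (adjusted p = 1.22e-14) in cells from serum/LIF+2i. Itgb5, which pairs with Itgav, fell. Levels of Itgb5 were 97.9 and 103 at 0 h, 81.3 and 81.8 at 12 h, 69.8 and 66.4 at 24 h, and 46.6 and 46.3 at 40 h. The other set had 127 and 119 at 0 h, 77.04 and 79.3 at 12 h, 60.2 and 64.7 at 24 h, and 60.5 and 63.5 at 40 h. The serum-derived set levelled off after 24 h, and the change at 40 h was -1.11 ± 0.07 (adjusted p = 6.94e-29) and -0.99 ± 0.06 (adjusted p = 3.7e-31). Within the beta class, per kilobase, Itgb1 held 54.2% ± 2.33 (SD, n = 2) at 0 h and 79.1% ± 1.11 at 40 h in cells from 2i/LIF, and 55.5% ± 1.19 and 74.7% ± 0.35 in cells from serum/LIF+2i.

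Itgb4, the partner of Itga6 in hemidesmosomes, was lower at 12 h in both media. Its level was 16.2 and 15.2 at 0 h, 6.44 and 5.75 at 12 h, 6.53 and 5.62 at 24 h, and 7.77 and 9.65 at 40 h. In the serum-derived set it was 17.3 and 19.4 at 0 h, 10.4 and 11.5 at 12 h, 14.5 and 15.8 at 24 h, and 17.5 and 17.1 at 40 h. At 12, 24 and 40 h all serum-derived libraries were above all libraries from 2i/LIF. The change at 40 h was -0.85 ± 0.17 (adjusted p = 4.24e-06) and -0.08 ± 0.13 (adjusted p = 0.57), and 7.66% of its exonic bases overlap a gene on the opposite strand. Itgb7 (named after its values were seen), known from lymphocytes that home to the gut, was higher at 12 and 24 h. Its level was 6.89 and 11.4 at 0 h, 15.6 and 15.9 at 12 h, 15.8 and 15.7 at 24 h, and 7.01 and 6.66 at 40 h. Itgb7 in serum-derived cells was 6.17 and 5.73 at 0 h, 16.5 and 18.9 at 12 h, 14.05 and 14.7 at 24 h, and 6.03 and 4.55 at 40 h. At 40 h the libraries lay within or near the range at 0 h. In cells from 2i/LIF it changed by 0.76 ± 0.17 (adjusted p = 0.00011) at 12 h, and in cells from serum/LIF+2i by 1.58 ± 0.18 (adjusted p = 1.53e-13). At 40 h its values were -0.44 ± 0.21 (adjusted p = 0.053) and -0.16 ± 0.22 (adjusted p = 0.532).

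**Figure D5:**
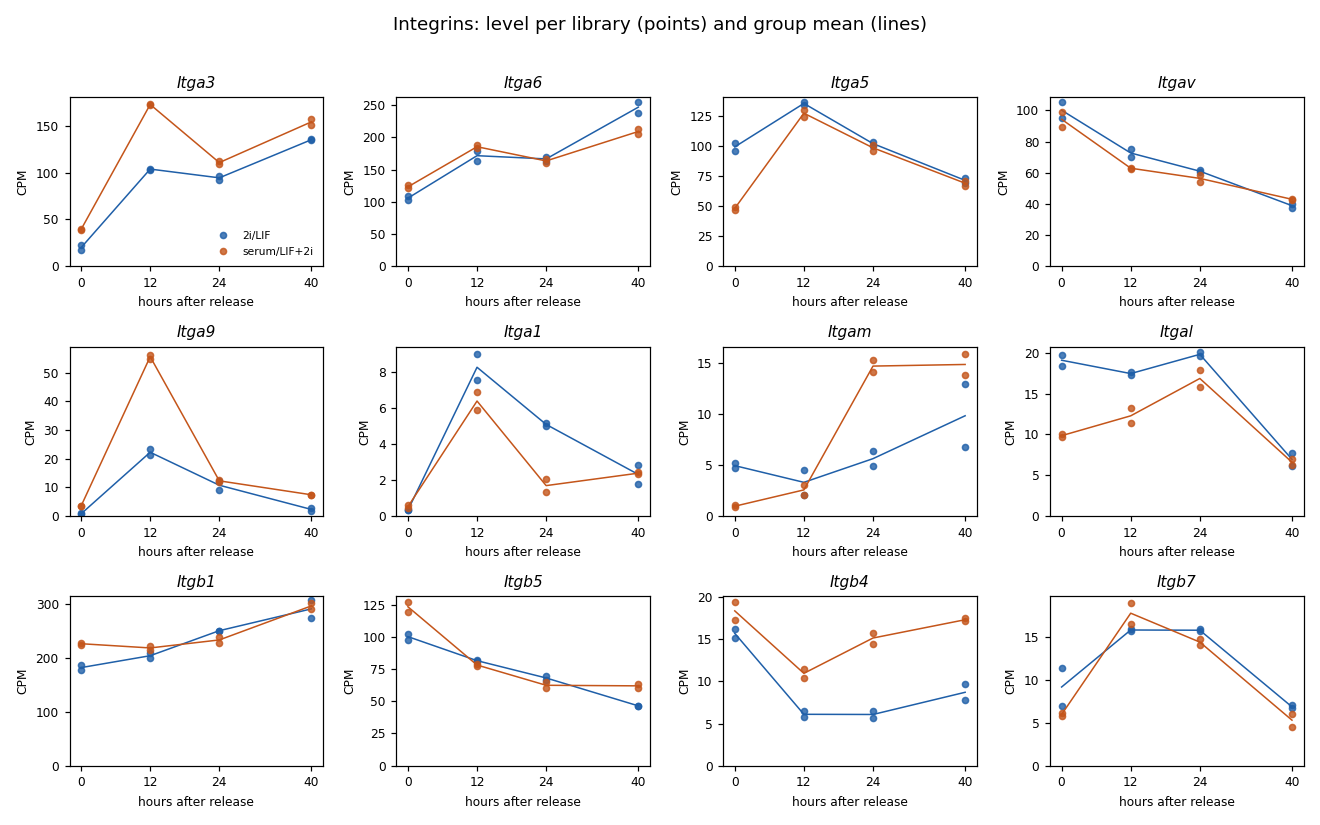
Level of 12 integrin genes in CPM (linear axes from 0) against hours after release, with points for libraries and lines for group means, blue for 2i/LIF and orange for serum/LIF+2i. Itga3, Itga6 and Itgb1 end above their start, Itgav and Itgb5 below it, and Itga9 and Itga1 peak at 12 h.

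Before exit, 21 of the 59 members differed between the media, against 33.0% of all genes. Of these, 14 were higher in serum/LIF+2i (14.6% of all genes were) and 7 lower (18.4%), and the members' median log2 fold change was 0.23 beside -0.01 over all genes. The 3 tested basement membrane collagens were all higher with serum, Col4a2 with a log2 difference of 2.36 ± 0.33 (adjusted p = 1.82e-09), Col4a1 by 2.04 ± 0.23 (adjusted p = 9.27e-13) and Col18a1 by 1.03 ± 0.05 (adjusted p = 3.08e-37). So were Itga9 by 2.22 ± 0.45 (adjusted p = 2.49e-05), Itga3 by 0.99 ± 0.11 (adjusted p = 3.13e-14) and Col2a1 by 1.26 ± 0.22 (adjusted p = 7.65e-07). Smaller differences in the same direction included Itgb1, Itgb5, Itga6, Hspg2, Lama5, Lamc1 and Col5a1, between 0.22 and 0.88. Lower with serum were Col9a2 at -2.37 ± 0.21 (adjusted p = 4.23e-18), Itgam at -2.35 ± 0.44 (adjusted p = 1.24e-05), Itga5 at -1.05 ± 0.07 (adjusted p = 1.35e-25), Itgal at -0.96 ± 0.16 (adjusted p = 4.48e-07), Itgb7, Fn1 and, from at most 2.73 CPM, Col1a2. In each of the genes given here with a value, the 2 libraries of one medium lay beyond both of the other, as the values above show.

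After release, 23 members differed between the media at 12 h, 25 at 24 h and 19 at 40 h, against 30.3%, 31.1% and 27.3% of all genes. At 40 h, 16 were higher in cells from serum/LIF+2i (13.9% of all genes were) and 3 lower (13.4%). The rule of choice bears on these 40 h counts. Col1a2, Col6a2, Col6a6, Col11a2, Col16a1, Col4a5 and Itga2b met it only with the 40 h libraries, which were deepest in serum/LIF+2i. The count at 12 h was 15 without replicate 2 of the serum-derived cells at that time, and that at 40 h was 12 without replicate 1 of the cells from 2i/LIF. The difference in Col4a1 went from 2.04 at 0 h to 2.20 at 12 h, 1.62 at 24 h and 0.48 ± 0.11 (adjusted p = 0.00044) at 40 h. Col4a2 ended at 0.24 ± 0.19 (adjusted p = 0.381). Col6a5 and Col26a1 differed at 40 h by 1.31 ± 0.11 (adjusted p = 4.44e-19) and 1.20 ± 0.18 (adjusted p = 1.91e-08), and Itga9 by 1.69 ± 0.25 (adjusted p = 1.1e-08), all higher after serum/LIF+2i. Nid2 and Itga6 were lower in that set at 40 h, with -0.63 ± 0.04 (adjusted p = 2.82e-24) and -0.24 ± 0.04 (adjusted p = 5.89e-06), and so was Lama3 with -0.59 ± 0.15 (adjusted p = 0.00113). All 5 further matrix proteins were lower in it at 24 h, with values between -0.28 (Fn1) and -0.87 (Nid1). Of all genes, 31.1% were called in either direction in that comparison.

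Whether exit itself differed between the media was tested as the difference of the 2 changes (serum/LIF+2i less 2i/LIF). Called were 14 members at 12 h, 21 at 24 h and 21 at 40 h, against 9.20%, 20.8% and 27.6% of all genes. The count at 12 h was 9 without replicate 1 of the cells from 2i/LIF at that time. At 40 h, the change of all 3 basement membrane collagens was smaller in cells from serum/LIF+2i, with differences of -2.13 ± 0.39 (adjusted p = 6.49e-06) for Col4a2, -1.55 ± 0.27 (adjusted p = 1.31e-06) for Col4a1 and -0.82 ± 0.06 (adjusted p = 2.65e-22) for Col18a1. The same sign held for Col2a1, at -1.17 ± 0.27 (adjusted p = 0.000284), and for Itga3, at -0.80 ± 0.12 (adjusted p = 1.55e-08). Differences with the other sign were those of Itgam, 2.96 ± 0.47 (adjusted p = 6.78e-07), Col9a2, 2.16 ± 0.35 (adjusted p = 2.59e-07), Col26a1, 1.06 ± 0.37 (adjusted p = 0.0218), and Itga5, 0.999 ± 0.10 (adjusted p = 3.39e-16). The difference in Col26a1 did not pass the threshold without replicate 1 of the 0 h cells from 2i/LIF (0.88), of the 40 h cells from 2i/LIF (0.92) or of the 0 h cells from serum/LIF+2i (0.72). The same difference missed it in DESeq2 (1.07, adjusted p = 0.1). These differences share the 0 h libraries with the medium comparison at 0 h and are not independent of it. For other members that fell, the differences were -0.13 ± 0.25 (adjusted p = 0.758) for Lama1, -0.01 ± 0.08 (adjusted p = 0.938) for Sparc and -0.25 ± 0.09 (adjusted p = 0.0533) for Nid1, none of them past the threshold.

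Other genes of the matrix pathways changed in both directions by 40 h. Of 28 genes for collagen maturation, 23 were tested, and 11 were higher and 8 lower in cells from 2i/LIF, 11 and 9 in cells from serum/LIF+2i. For these lists and those below, 34.1% of all genes were higher and 34.7% lower in cells from 2i/LIF, and 35.3% each way in cells from serum/LIF+2i. Pcolce, which enhances the cutting of procollagen ends, went from 176 to 24.2 CPM (mean of 2 libraries) in cells from 2i/LIF and from 101 to 17.6 CPM in the other set, with log2 fold changes of -2.86 ± 0.07 (adjusted p = 3.4e-66) and -2.52 ± 0.08 (adjusted p = 1.28e-57). Crtap, part of a prolyl hydroxylase complex, and Colgalt1, which adds galactose to collagen, fell too, Crtap with -1.39 ± 0.07 (adjusted p = 1.97e-39) and -0.82 ± 0.06 (adjusted p = 2.58e-24) and Colgalt1 with -0.91 ± 0.05 (adjusted p = 2.27e-32) and -1.29 ± 0.05 (adjusted p = 2.97e-50). Serpinh1, the collagen chaperone, went from 168 to 187 CPM and from 87.1 to 298 CPM, with 0.15 ± 0.06 (adjusted p = 0.023) and 1.77 ± 0.06 (adjusted p = 1.45e-31), and the difference of these was 1.63 ± 0.08 (adjusted p = 1.23e-21).

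Of 26 genes of the integrin adhesion complex, 25 were tested, with 10 higher and 9 lower in cells from 2i/LIF and 8 and 9 in cells from serum/LIF+2i. Zyx, a focal adhesion protein of actin bundles, went from 7.26 to 75.2 CPM and from 7.49 to 86.6 CPM, with 3.37 ± 0.13 (adjusted p = 5.2e-50) and 3.53 ± 0.12 (adjusted p = 4.85e-56). Bcar1, an adaptor of adhesion signalling, rose by 2.000 ± 0.07 (adjusted p = 1.05e-51) and 1.46 ± 0.07 (adjusted p = 1e-39), and Actn1, an actin cross-linker, fell, with -1.07 ± 0.04 (adjusted p = 3.24e-46) and -1.01 ± 0.04 (adjusted p = 8.67e-46). Parvb, a parvin, and Tns1, a tensin, both of adhesions, fell as well, Parvb with -2.66 ± 0.14 (adjusted p = 1.09e-36) and -2.44 ± 0.12 (adjusted p = 7.69e-40) and Tns1 with -2.18 ± 0.14 (adjusted p = 8e-30) and -2.25 ± 0.10 (adjusted p = 1.56e-44).

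Of 12 other matrix receptors, 4 were higher and 5 lower in cells from 2i/LIF, and 3 and 4 in cells from serum/LIF+2i. Bcam, which binds Lama5, fell, with -1.45 ± 0.05 (adjusted p = 1.13e-53) and -1.11 ± 0.05 (adjusted p = 5.55e-45), and the syndecan Sdc4 with -1.57 ± 0.07 (adjusted p = 4.51e-42) and -2.15 ± 0.07 (adjusted p = 1.85e-56). Ddr1, a collagen receptor kinase, rose from 11.5 to 59.0 CPM and from 25.1 to 57.1 CPM, by 2.37 ± 0.12 (adjusted p = 1.63e-38) and 1.19 ± 0.09 (adjusted p = 2.53e-23). Of 20 matrix proteases and inhibitors, 14 were tested, 7 higher and 4 lower in cells from 2i/LIF and 8 and 2 in cells from serum/LIF+2i. The gelatinase Mmp2 rose by 2.79 ± 0.22 (adjusted p = 5.62e-23) and 2.36 ± 0.18 (adjusted p = 1.56e-24), and Timp1, an inhibitor of matrix metalloproteases, fell, with -1.62 ± 0.11 (adjusted p = 2.18e-26) and -1.80 ± 0.11 (adjusted p = 1.66e-32). Mmp9, the other gelatinase, rose from 0.734 to 13.2 CPM in cells from serum/LIF+2i, with 4.14 ± 0.31 (adjusted p = 1.92e-24).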

How the data were processed

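Per the labels' protocols, total RNA was taken up in TRIzol and sequenced from a stranded mRNA kit. The authors deposited whole-number counts per gene, not normalized, and fastp, STAR, featureCounts and mm10 are named in the submitters' processing notes. Annotation and strand setting of the counting are not given in the sources used here. Totals ran from 5931381 to 11142744, and 0 value columns were left out. Low counts passed edgeR's filterByExpr (minimum 10, total 15), library sizes were scaled by TMM, and all 16 libraries were fitted with 1 term per group (8 residual degrees of freedom). All p-values came from edgeR's two-sided quasi-likelihood F test (edgeR 4.0.16, R 4.3.3, limma 3.58.1), with Benjamini-Hochberg adjustment over 14288 genes, for 17 comparisons. CPM are counts divided by the scaled library total, and floors (3 counts per library) and bounds cover counting error only. The test was checked on simulated counts. Replicate numbers did not pair the libraries (correlation of deviations -0.023 to 0.0331).

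The members and the gene and marker lists were chosen with earlier results of these data known. Library values are given for members with a mean of at least 5 CPM in a group and a called change of at least 1 (log2) at 40 h against 0 h, between media at 0 or 40 h, or in the difference of changes at 40 h. The most abundant member per role is given too, and a few members named after their values were seen are marked so, and of each other list up to 4 genes with the smallest adjusted p at 40 h. The integrin adhesion complex goes past that limit, with Zyx, Bcar1, Actn1, Parvb and Tns1 all given. Alternatives were DESeq2 1.42.0, other scalings and filters, no ribosomal RNA genes, only the compared groups, a replicate block, a minimum change and leaving out each library. Gene positions are from GENCODE on GRCm38, and promoters from RefSeq on GRCm38.p6. All 62 members matched by Entrez identifier. One member is counted but not reported here.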

Additional observations from a re-analysis of the deposited data

Results flagged for a closer look

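These results drew attention because the change during exit differed between the media by more than 1 on the log2 scale, by a test of that difference (serum/LIF+2i less 2i/LIF, edgeR's quasi-likelihood test, 2 libraries per group). Among basement membrane collagens the difference at 40 h was -2.13 for Col4a2 (adjusted p = 6.49e-06) and -1.55 for Col4a1 (adjusted p = 1.31e-06). For Col2a1 it was -1.17 at 40 h (adjusted p = 0.000284). Col9a2 differed by 1.92 at 12 h (adjusted p = 4.32e-09), 1.79 at 24 h (adjusted p = 5.64e-08) and 2.16 at 40 h (adjusted p = 2.59e-07). Col26a1 differed by 1.28 at 24 h (adjusted p = 0.00722) and 1.06 at 40 h (adjusted p = 0.0218).

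Among integrins, Itgam differed by 2.01 at 12 h (adjusted p = 0.0157), 3.72 at 24 h (adjusted p = 4.33e-09) and 2.96 at 40 h (adjusted p = 6.78e-07). Itga9 differed by -2.02 at 24 h (adjusted p = 0.000698) and Itgb4 by 1.08 at 24 h (adjusted p = 0.000139). The value for Itga9 rests on 9 counts over both libraries from 2i/LIF at 0 h. All of these genes but Itgb4 and Col26a1 also differed between the media at 0 h, and those libraries enter both comparisons.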

How the results depend on the processing

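Of the alternatives to the 84 results on named genes, 1042 kept their direction and side of the threshold, 16 lost the call and 2 reversed, both in changes that had not been called. Col2a1 at 40 h in cells from serum/LIF+2i went to -0.11 and 0.31 as each library at 0 h was left out in turn, and Col9a2 to 0.03 (0.0277) with scaling by library size only. The call for the difference of changes in Itgam at 12 h was lost without replicate 1 of 2i/LIF at 0 h (adjusted p = 0.0622) or 12 h (0.0878), and of serum/LIF+2i replicate 1 at 0 h (0.0566) or replicate 2 at 12 h (0.158). The difference of changes in Col26a1 at 24 h lost its call without replicate 1 of either medium at 0 h (adjusted p = 0.0993 and 0.0901).

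With a minimum log2 fold change of 1, members called fell to 18 and 24 (12 and 24 h, 2i/LIF) and 19 (12 h, serum/LIF+2i), in steps to 11, 19, 17 and 18, between media to 9, 8, 12 and 7 (0 to 40 h), and for the difference of changes to 2, 5 and 7. DESeq2 called 14 between media at 12 h and 9 for the difference at 12 h.

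Leaving out a library in turn gave 28 to 32, 35 to 36 and 37 to 42 members (12, 24 and 40 h, 2i/LIF), and 29 to 33, 34 to 39 and 41 to 44 (serum/LIF+2i). Steps gave 22 to 25 and 31 to 33, and 29 to 32 and 32 to 37. Media gave 18 to 21, 15 to 20, 20 to 25 and 12 to 17, and differences 9 to 15, 20 to 21 and 15 to 22. The lone library left is then assumed to vary like the other groups. With a replicate block, 41 and 43 members were called at 40 h, and no member count moved by more than 1.5 times. Same-numbered libraries were not paired, with correlations of deviations from -0.023 to 0.0331 and 0 of 28 pairs over 0.1.

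Genes near the floor of 3 counts per library, 0.259 to 0.517 CPM, have wide errors, and strand-blind counting, if used, would mix genes with antisense neighbours.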
